A study of Arabidopsis thaliana with 12 samples.

Results

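The genes described here are 10 nuclear genes of photosynthetic electron transport and ATP synthesis: *PETC*, the Rieske iron-sulfur subunit of the cytochrome b6f complex, *PETE1* and *PETE2* for plastocyanin, *FD1* and *FD2* for the leaf-type ferredoxins, *FNR1* and *FNR2* for the leaf-type FNRs, and *ATPC1*, *ATPD* and *ATPG* for the gamma, delta and b′ subunits of the ATP synthase. They were picked by locus identifier, with earlier results of these data known, and all 10 were found among the 33078 nuclear loci of the deposited expression table.

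Photosynthetic electron transport carries electrons from photosystem II through the cytochrome b6f complex and plastocyanin to photosystem I, and from there through ferredoxin to ferredoxin-NADP reductase (FNR), which makes NADPH. The proton gradient built on the way drives the chloroplast ATP synthase. Some subunits of these complexes are encoded in the plastid genome and others in the nucleus, while the mobile carriers plastocyanin and ferredoxin and the enzyme FNR are nuclear. SIG2 is one of the nuclear-encoded sigma factors that direct the plastid-encoded RNA polymerase to plastid promoters.

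RNA-seq was run on entire seedlings of *Arabidopsis thaliana* in 4 conditions with 3 biological replicates each, 12 samples in all. The conditions were *sig2-2* at 7 days, WT at 7 days, *sig2-2* at 1 day and WT at 1 day. Both genotypes had the Col-0 background, and *sig2-2* is a single T-DNA insertion line of *SIG2*. All seedlings were stratified in the dark and then kept on MS medium with sucrose in continuous red light at 50 μmol per m2 and second, so age and time in light are the same variable. The authors combined the 3 replicates into 1 FPKM value (fragments per transcript length and sequencing depth) per locus and condition. The replicate error and the depth of each sample are therefore unknown, and every comparison below is a description of combined values with no test and no interval. In entire seedlings, fewer cells of a type and less RNA per cell cannot be told apart.

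*SIG2* (AT1G08540) was at 1.49 FPKM in *sig2-2* and 87.7 FPKM in WT at 7 days, while at 1 day it had 1.31 FPKM in *sig2-2* against 66.5 FPKM in WT, as the genotype labels have it. Of the green-tissue markers, the Rubisco genes *RBCS1A* and *RBCS3B* were at 480 FPKM or more in every condition. The carbonic anhydrase gene *CA1* was at 2255 FPKM in *sig2-2* and 3511 FPKM in WT at 7 days, but was listed at 0 in *sig2-2* and 0.0454 FPKM in WT at 1 day, so the markers did not go together at 1 day. The 3 green-tissue markers summed to 24172 FPKM in *sig2-2* and 33809 FPKM in WT at 7 days, and to 3897 FPKM in *sig2-2* and 2422 FPKM in WT at 1 day, the same directions as for most of the 10 genes. The 3 root hair markers (*COBL9*, *EXPA7*, *EXPA18*) were all lower in *sig2-2* at 7 days, summing to 3.36 FPKM against 9.98 FPKM in WT. At 1 day all 3 were higher, summing to 64.5 FPKM in *sig2-2* against 10.8 FPKM in WT. The 3 seed storage transcripts (*CRA1*, *CRC*, *SESA3*) were higher in *sig2-2* at both ages, summing to 116 FPKM in *sig2-2* and 11.05 FPKM in WT at 1 day. At 7 days they summed to 2.56 FPKM in *sig2-2* and 0.320 FPKM in WT, where *CRC* and *SESA3* were listed at 0. The part that any difference in tissue make-up has in the values below was not tested. One locus, AT2G01021, held 11.4% of the summed FPKM in *sig2-2* and 5.45% in WT at 7 days, and 25.5% in *sig2-2* and 32.6% in WT at 1 day. Rescaling each condition without it changed the direction of no value of the 10 genes.

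The 3 pairs of paralogs were distinguishable to reads of the length used. In TAIR10.1, every exonic word of 55 nt of the 10 genes occurred once in the genome (100% for each). Coding sequences were 79.6% identical between *FD1* and *FD2*, 60.3% between *PETE1* and *PETE2* and 73.5% between *FNR1* and *FNR2*, counted over all aligned columns. No word of 55 nt was shared within a pair. The 2 plastocyanin genes, the 2 ferredoxin genes, *ATPC1* and *ATPD* have 0 introns in that annotation, whereas *PETC* has 4, *ATPG* has 1 and each *FNR* gene has 8. *FNR1* overlaps AT5G66180 on the opposite strand by 191 bases where their 3′ ends meet. The counting is not stated to use strand, and reads from that stretch cannot be assigned to either gene. AT5G66180 was listed at 12.1 FPKM in *sig2-2* and 7.40 FPKM in WT at 7 days, while at 1 day it had 11.4 FPKM in *sig2-2* against 13.4 FPKM in WT, below *FNR1* in every condition. The table lists both genes with the same span, chr5:26448938-26453199, which reaches past the TAIR10.1 end of *FNR1*. How much of the value listed for *FNR1* comes from reads of AT5G66180 was not tested, and this holds for every value of *FNR1* below. The first 78 bases of *FD1* in TAIR10.1 overlap the end of AT1G10950 on the same strand, a locus listed between 69.6 and 106 FPKM, while the spans in the table do not overlap.

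Upstream sequence is shown for 4 of the genes, as these stand for the patterns described below. *FNR1* had the largest difference between genotypes at 1 day, with *PETE2* and *PETC* next to it, and *FD2* was the gene that went the other way at 7 days. Each stretch is from RefSeq's TAIR10.1 annotation and ends at the base before the annotated gene start. Each is 250 bases long unless a neighbouring gene begins sooner. *PETC* is shown from chr4:1439896-1440145 on the plus strand, *PETE2* from chr1:7043393-7043627 on the minus strand, *FNR1* from chr5:26453200-26453275 on the minus strand and *FD2* from chr1:22444057-22444306 on the plus strand. Capitals mark GATAAG (the I-box) and CCAATC on either strand.
PETC: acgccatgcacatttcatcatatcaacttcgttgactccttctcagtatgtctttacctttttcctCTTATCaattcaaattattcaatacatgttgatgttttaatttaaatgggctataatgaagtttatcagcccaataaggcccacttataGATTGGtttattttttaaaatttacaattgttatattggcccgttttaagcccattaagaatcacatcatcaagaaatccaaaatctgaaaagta
PETE2: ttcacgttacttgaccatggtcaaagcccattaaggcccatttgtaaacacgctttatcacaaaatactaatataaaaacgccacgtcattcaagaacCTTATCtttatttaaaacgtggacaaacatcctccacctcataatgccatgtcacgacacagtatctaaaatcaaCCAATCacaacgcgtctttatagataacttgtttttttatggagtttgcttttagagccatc
FNR1: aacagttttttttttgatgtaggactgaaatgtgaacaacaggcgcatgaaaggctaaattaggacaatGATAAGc
FD2: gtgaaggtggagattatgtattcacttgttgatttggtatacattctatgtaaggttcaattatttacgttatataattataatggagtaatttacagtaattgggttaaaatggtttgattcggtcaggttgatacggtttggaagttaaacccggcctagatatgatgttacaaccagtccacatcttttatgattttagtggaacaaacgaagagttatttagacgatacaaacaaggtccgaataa
GATAAG was found within 250 bases upstream of *PETC*, *PETE2*, *FNR1* and *ATPG*, 4 of the 10 genes, against 12.3% of 27443 annotated protein-coding genes. CCAATC was found upstream of *PETC*, *PETE2* and *ATPD*, 3 of the 10 genes, against 10.2% of annotated protein-coding genes. The G-box CACGTG was found upstream of *ATPD* alone, where 6.49% of annotated protein-coding genes have it. None of the 3 motifs occurred in the windows of *FD2*, *PETE1*, *FD1*, *FNR2* and *ATPC1*. Of these genes, *FD2* alone was higher in *sig2-2* at 7 days. The window of *FD1* lies entirely inside AT1G10950. The matches of *ATPD* lie inside a neighbouring annotated gene, AT4G09649. No motif overlaps another by its letters, and a match describes the sequence only.

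At 7 days, 9 of the 10 genes were lower in *sig2-2* than in WT and *FD2* was higher. None was 2-fold or more lower in *sig2-2*, where 3.87% of the 20057 loci with at least 1 FPKM in *sig2-2* or WT were, and none was 2-fold or more higher, where 4.46% were. Changes are given as log2 ratios of *sig2-2* over WT with 1 FPKM added to both values, and their median over the 10 genes was −0.38, against 0.00 over all loci. Lower values by any amount were found for 49.9% of all loci. Among the 546 loci with at least 300 FPKM in *sig2-2* or WT, a range that holds all 10 genes at this age, 67.9% were lower in *sig2-2* and the median was −0.22. All 10 genes passed the minimum of 1 FPKM in each condition.

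At 1 day, all 10 genes were higher in *sig2-2* than in WT, where 47.7% of the 18862 loci were. The median log2 ratio was 0.43 over the 10 genes and −0.01 over all loci. *FNR1* was the 1 gene that was 2-fold or more higher, against 2.92% of all loci. None was 2-fold or more lower, against 1.15% of loci. With a threshold of 1.5-fold on the same scale, *PETC*, *PETE2* and *FNR1* were higher at 1 day (3 of 10, against 6.35% of loci) and *FD1* and *ATPD* were lower at 7 days (2 of 10, against 9.99% of loci). *PETE1* was 1.51-fold higher at 1 day by its values as listed and under the threshold with 1 FPKM added. The 10th to 90th percentile of all loci spanned −0.58 to 0.62 at 7 days and −0.32 to 0.39 at 1 day. Outside that span were *FD1* and *ATPD* at 7 days, 2 genes, and *PETC*, *PETE1*, *PETE2*, *FD1*, *FNR1* and *ATPD* at 1 day, 6 genes.

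**Figure D1:**
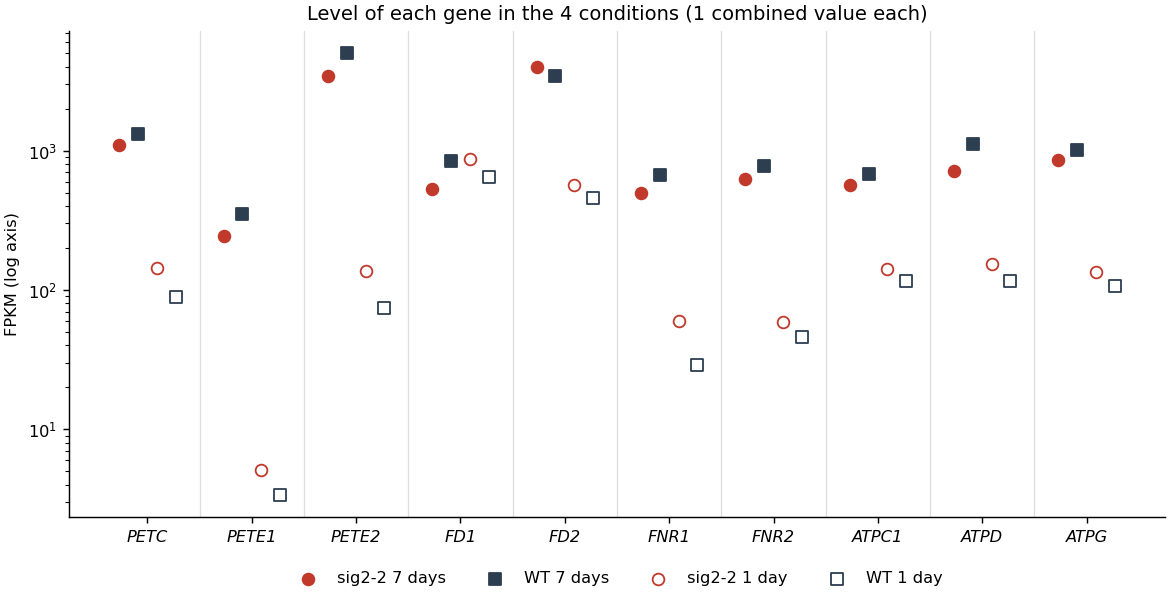
FPKM of each gene on a log axis in *sig2-2* at 7 days (filled circles), WT at 7 days (filled squares), *sig2-2* at 1 day (open circles) and WT at 1 day (open squares), 1 combined value each. Filled squares lie above filled circles for every gene but *FD2*, open circles lie above open squares for all 10, and *FD1* is the gene whose values at the 2 ages lie together, between 526 and 870 FPKM.

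**Figure D2:**
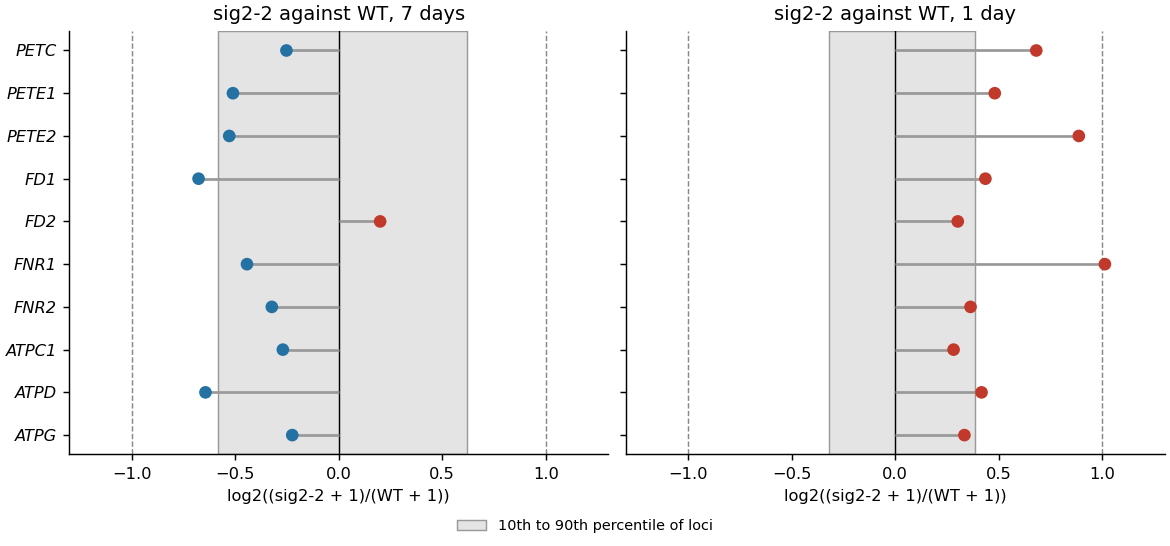
Log2 ratio of *sig2-2* over WT with 1 FPKM added, at 7 days (left) and 1 day (right), with the grey band from the 10th to the 90th percentile of all loci and dashed lines at 2-fold. At 7 days 9 points lie left of 0 and *FD2* lies at 0.20, and at 1 day all 10 lie right of 0, up to 1.01 for *FNR1*.

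*PETC* (AT4G03280, TAIR10.1 chr4:1440146-1441863, plus strand) encodes the Rieske protein, which takes electrons from plastoquinol within the cytochrome b6f complex. It was at 1103 FPKM in *sig2-2* and 1314 FPKM in WT at 7 days, a log2 ratio of −0.25. At 1 day it was at 144 FPKM in *sig2-2* and 89.4 FPKM in WT, a log2 ratio of 0.68 and percentile 94.7 of loci. *PETC* was thus 1.61-fold higher in the mutant at the younger age and lower in it at the older one.

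Plastocyanin is the copper protein that carries electrons from cytochrome f to photosystem I. *PETE2* (AT1G20340, listed as DRT112, chr1:7042046-7043392, minus strand) was at 3455 FPKM in *sig2-2* and 4985 FPKM in WT at 7 days, a log2 ratio of −0.53. At 1 day it was at 137 FPKM in *sig2-2* and 73.7 FPKM in WT, 1.86-fold higher in *sig2-2* (log2 ratio 0.89, percentile 96.4 of loci). It was the highest of the 10 genes in WT at 7 days and among the 4 lowest in WT at 1 day. *PETE1* (AT1G76100, chr1:28553883-28554930, minus strand) was the lowest of the 10 genes in every condition. It was at 244 FPKM in *sig2-2* and 348 FPKM in WT at 7 days (log2 ratio −0.51), while at 1 day it had 5.09 FPKM in *sig2-2* against 3.37 FPKM in WT (log2 ratio 0.48). The share of *PETE2* in the summed FPKM of the pair was 93.4% in *sig2-2* and 93.5% in WT at 7 days, and 96.4% in *sig2-2* and 95.6% in WT at 1 day. The shares of the plastocyanin genes thus differed by less than 1 percentage point between genotypes at either age. As a ratio, *PETE2* to *PETE1* was 14.2 in *sig2-2* and 14.3 in WT at 7 days. At 1 day the ratio was 26.9 in *sig2-2* and 21.9 in WT, where it rests on the low values of *PETE1*.

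Ferredoxin takes electrons from photosystem I and hands them to FNR and to other stromal enzymes. *FD2* (AT1G60950, listed as FED A, chr1:22444307-22445291, plus strand) was at 3968 FPKM in *sig2-2* and 3454 FPKM in WT at 7 days. Its log2 ratio of 0.20 lay at percentile 69.6 of loci, and it was the highest of the 10 genes in *sig2-2* at this age. At 1 day *FD2* was at 567 FPKM in *sig2-2* and 460 FPKM in WT (log2 ratio 0.30). *FD1* (AT1G10960, chr1:3664187-3665040, plus strand) was at 526 FPKM in *sig2-2* and 842 FPKM in WT at 7 days. Its log2 ratio of −0.68 was the lowest of the 10 and lay at percentile 8.02 of loci. At 1 day *FD1* was at 870 FPKM in *sig2-2* and 643 FPKM in WT (log2 ratio 0.43), the highest of the 10 genes in both genotypes.

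The ferredoxin pair was the one in which the paralogs went opposite ways between genotypes at 7 days. *FD2* made up 88.3% of the summed FPKM of the pair in *sig2-2* and 80.4% in WT at that age. Its ratio to *FD1* was 7.54 in *sig2-2* and 4.10 in WT. The sum of the pair was nearly the same, at 4494 FPKM in *sig2-2* and 4296 FPKM in WT. At 1 day *FD1* was the more abundant of the pair, and *FD2* held 39.4% in *sig2-2* and 41.7% in WT. The sum was then 1436 FPKM in *sig2-2* and 1103 FPKM in WT.

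FNR passes electrons from ferredoxin to NADP. *FNR1* (AT5G66190, chr5:26450964-26453199, minus strand) was at 495 FPKM in *sig2-2* and 673 FPKM in WT at 7 days, a log2 ratio of −0.44. At 1 day it was at 59.7 FPKM in *sig2-2* and 29.1 FPKM in WT, 2.05-fold higher in *sig2-2* (log2 ratio 1.01, percentile 97.1 of loci). With 10 FPKM added to both values in place of 1, the log2 ratio was 0.83 and no gene of the 10 reached 2-fold. *FNR2* (AT1G20020, chr1:6942625-6945091, plus strand) was at 621 FPKM in *sig2-2* and 777 FPKM in WT at 7 days (log2 ratio −0.32), while at 1 day it had 59.1 FPKM in *sig2-2* against 45.8 FPKM in WT (log2 ratio 0.36). At 1 day *FNR2* held 49.8% of the summed FPKM of the pair in *sig2-2* and 61.1% in WT. At 7 days it held 55.7% in *sig2-2* and 53.6% in WT.

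**Figure D3:**
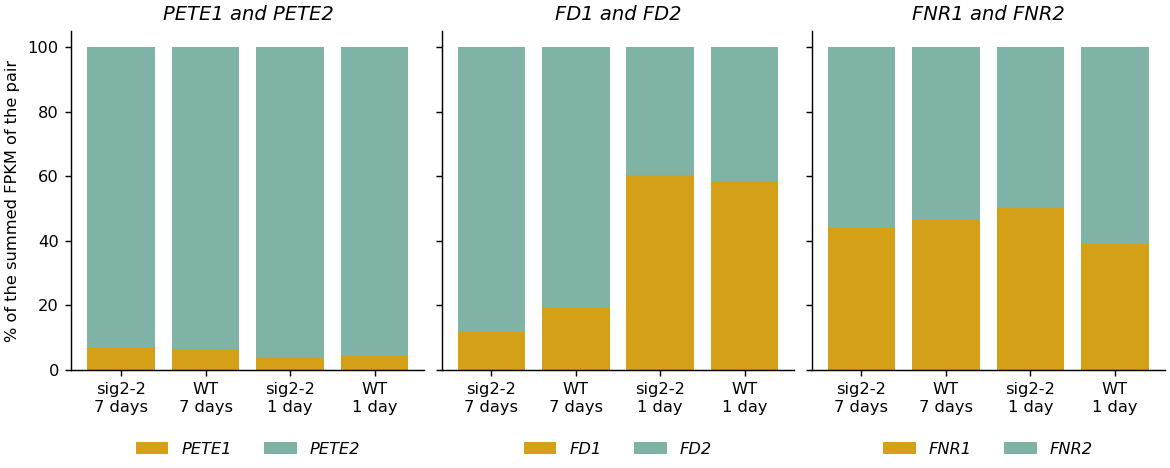
Share of each paralog in the summed FPKM of its pair, in percent, for *sig2-2* and WT at 7 days and at 1 day (1 combined value per bar). *PETE2* holds over 93% of its pair in every bar, *FD2* holds most of its pair at 7 days and less than *FD1* at 1 day, and *FNR2* holds its largest share, 61.1%, in WT at 1 day.

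The 3 nuclear ATP synthase genes encode the gamma subunit of the central stalk (*ATPC1*), the delta subunit that joins the catalytic head to the outer stalk (*ATPD*) and the b′ subunit of the outer stalk (*ATPG*). *ATPD* (AT4G09650, chr4:6100714-6101864, plus strand) was at 714 FPKM in *sig2-2* and 1116 FPKM in WT at 7 days. Its log2 ratio of −0.64 was the second lowest of the 10 genes, at percentile 8.64 of loci. At 1 day *ATPD* was at 154 FPKM in *sig2-2* and 115 FPKM in WT (log2 ratio 0.42). *ATPC1* (AT4G04640, chr4:2350498-2352025, minus strand) was at 565 FPKM in *sig2-2* and 682 FPKM in WT at 7 days (log2 ratio −0.27), while at 1 day it had 141 FPKM in *sig2-2* against 115 FPKM in WT (log2 ratio 0.28). *ATPG* (AT4G32260, PDE334 in TAIR10.1, chr4:15573553-15574737, minus strand) was at 858 FPKM in *sig2-2* and 1002 FPKM in WT at 7 days (log2 ratio −0.22). At 1 day *ATPG* was at 135 FPKM in *sig2-2* and 107 FPKM in WT (log2 ratio 0.33).

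Levels of the 3 ATP synthase genes lay close to each other. The highest was 1.52-fold over the lowest in *sig2-2* and 1.64-fold in WT at 7 days. At 1 day the same ratio was 1.14-fold in *sig2-2* and 1.08-fold in WT. *ATPC1* was the lowest of the 3 in both genotypes at 7 days, and *ATPG* was the lowest in both at 1 day. Since FPKM is per length, these levels can be set side by side, but with no replicate error the order of neighbours is not shown to differ.

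The age comparison was larger than the genotype comparison for every gene but *FD1*. In *sig2-2*, 9 of the 10 genes were 2-fold or more higher at 7 days than at 1 day, where 19.9% of 20386 loci were. In WT, 9 of the 10 were, against 19.5% of 20350 loci. The median log2 ratio of 7 days over 1 day was 2.87 in *sig2-2* and 3.56 in WT. *PETE1* had the largest age ratio, 47.9-fold in *sig2-2* and 103-fold in WT, followed by *PETE2* with 25.2-fold and 67.6-fold in *sig2-2* and WT. These folds are of values as listed, and those of *PETE1* rest on 5.09 FPKM in *sig2-2* and 3.37 FPKM in WT at 1 day. With 1 FPKM added, its log2 age ratios were 5.33 in *sig2-2* and 6.32 in WT. *FNR1* was 8.29-fold higher at 7 days than at 1 day in *sig2-2* and 23.1-fold higher in WT. *ATPC1* had the smallest age ratio among the 9 genes, 4.02-fold in *sig2-2* and 5.90-fold in WT. *FD1* stayed under 2-fold in both genotypes, with a log2 ratio of −0.72 in *sig2-2* and 0.39 in WT.

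All 10 age ratios were lower in *sig2-2* than in WT. The share of all loci for which this held was not computed. The difference, *sig2-2* minus WT on the log2 scale, ran between −1.45 for *FNR1* and −0.10 for *FD2*, with a median of −0.96. Genes outside the set had such differences too, with −1.04 for *RBCS1A*, −1.53 for *RBCS3B* and −1.20 for *GLU1*. They were not limited to photosynthesis genes. The root hair and seed storage markers, at low levels at 7 days, ran between −1.28 for *CRA1* and −3.72 for *SESA3*. Among the other pathway genes, *FD4* (1.06, at low levels), *ATPC2* (0.96), *PAA2* (0.36), *NIR1* (0.19) and *PETM* (0.17) went the other way. So did *CYTC6A* (cytochrome c6A, 0.15) and the cytochrome b6f assembly genes *CCB2* (0.12) and *CCB1* (0.08). These differences rest on the same 4 values as the genotype ratios and are another view of them. Of the summed FPKM of the nuclear loci, the 10 genes made up 1.18% in *sig2-2* and 1.51% in WT at 7 days. At 1 day they made up 0.177% in *sig2-2* and 0.117% in WT. With AT2G01021 left out of the sum, the shares were 1.33% in *sig2-2* and 1.60% in WT at 7 days. At 1 day they were then 0.238% in *sig2-2* and 0.174% in WT.

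**Figure D4:**
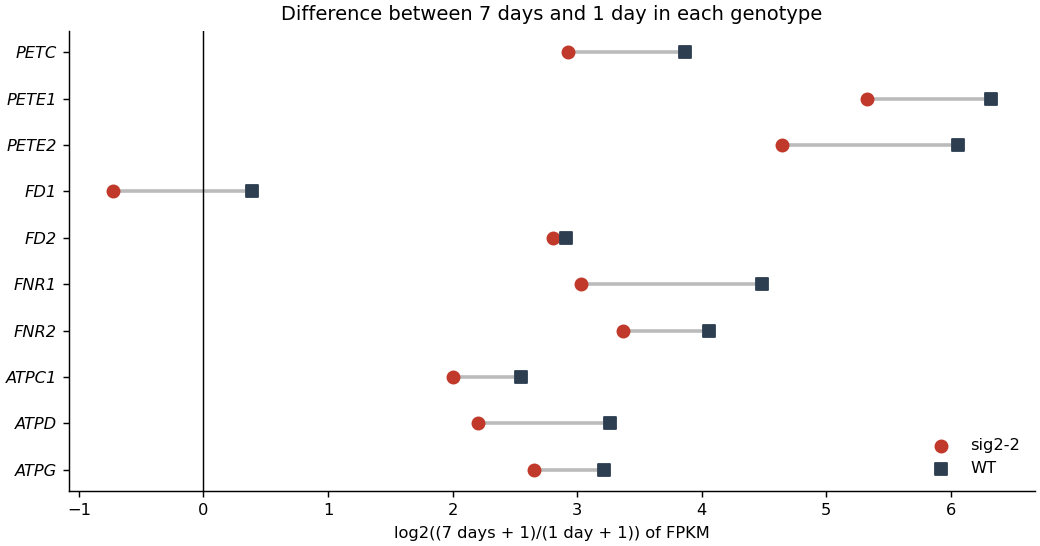
Log2 ratio of 7 days over 1 day with 1 FPKM added, for *sig2-2* (circles) and WT (squares), joined by a line for each gene. The circle lies left of the square for all 10 genes, by 0.10 for *FD2* and 1.45 for *FNR1*, and *FD1* is the gene whose 2 points lie on either side of 0.

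The other 32 nuclear genes of the pathway that were examined comprised relatives of the carriers, assembly factors and enzymes that ferredoxin feeds. At 7 days, 20 of the 32 were lower in *sig2-2* and 11 were higher, with a median log2 ratio of −0.17. At 1 day, 25 were higher and 7 were lower, with a median of 0.16. Past 2-fold in either direction were 1 gene at 7 days, against 8.33% of all loci, and 2 genes at 1 day, against 4.06% of all loci. *RFNR2*, a root-type FNR, was at 25.2 FPKM in *sig2-2* and 66.8 FPKM in WT at 7 days (log2 ratio −1.37). *GLU1*, the ferredoxin-dependent glutamate synthase, was at 35.0 FPKM in *sig2-2* and 16.7 FPKM in WT at 1 day (log2 ratio 1.03). *FD4*, a ferredoxin of low level, was at 0.195 FPKM in *sig2-2* and 1.49 FPKM in WT at 1 day (log2 ratio −1.06), and was listed at 0 in both genotypes at 7 days.

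Among the 6 other ferredoxins and root-type FNRs, 5 were lower and none was higher in *sig2-2* at 7 days, and 3 were higher and 3 lower at 1 day. *FD3*, the root-type ferredoxin, was lower in *sig2-2* at both ages, at 95.1 FPKM against 141 FPKM in WT at 7 days and at 201 FPKM against 282 FPKM in WT at 1 day. *FD3* therefore went with *FD1* at 7 days but not at 1 day, when both leaf-type ferredoxin genes were higher. *RFNR1* was at 19.0 FPKM in *sig2-2* and 26.2 FPKM in WT at 7 days, while at 1 day it had 125 FPKM in *sig2-2* against 112 FPKM in WT. *RFNR1* was lower at 7 days than at 1 day in both genotypes, with log2 ratios of −2.66 in *sig2-2* and −2.06 in WT. *RFNR2* was lower at 7 days in *sig2-2* (log2 ratio −1.25) but not in WT (0.09). The thylakoid anchors of FNR were both higher in *sig2-2* at 1 day, *TROL* with a log2 ratio of 0.67 and *TIC62* with 0.21. At 7 days they were at 0.04 and −0.25, in the same order.

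*PETM*, the other nuclear subunit of the cytochrome b6f complex, went against *PETC* at 7 days. It was at 1772 FPKM in *sig2-2* and 1337 FPKM in WT (log2 ratio 0.41), and at 1 day it was at 160 FPKM in *sig2-2* and 135 FPKM in WT (log2 ratio 0.24). Of the 8 assembly factors of the complex, 5 were lower and 3 higher in *sig2-2* at 7 days, and 6 were higher and 2 lower at 1 day. They ranged from *HCF164* at −0.37 to *CCB1* at 0.26 at 7 days, and from *HCF164* at −0.10 to *CCB4* at 0.61 at 1 day. *PAA2*, the thylakoid copper pump that supplies plastocyanin, was at 75.6 FPKM in *sig2-2* and 45.4 FPKM in WT at 7 days. Its log2 ratio of 0.72 was the highest of the 32 genes at that age, when both plastocyanin genes were lower in *sig2-2*. The identifier of *PAA2* is given to 2 rows of the table, and the one at its TAIR10.1 position was used. *PAA1*, the pump of the chloroplast envelope, was at −0.35 at 7 days and 0.25 at 1 day, and was placed by its position because its identifier is not the one listed.

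*ATPC2*, a second gene for the gamma subunit, went the opposite way to *ATPC1* at both ages. It was at 10.11 FPKM in *sig2-2* and 6.95 FPKM in WT at 7 days (log2 ratio 0.48), while at 1 day it had 7.04 FPKM in *sig2-2* against 10.2 FPKM in WT (log2 ratio −0.47). The 4 ATP synthase assembly factors lay between −0.37 for *CGL160* and 0.08 for *CGLD11* at 7 days. At 1 day they lay between 0.06 for *CGL160* and 0.40 for *CGLD11*. Of the 7 genes for enzymes that ferredoxin feeds, 5 were lower and 2 higher in *sig2-2* at 7 days, and 6 were higher and 1 lower at 1 day. *SIR*, the sulfite reductase, was lowest at 7 days with a log2 ratio of −0.50, and *NIR1*, the nitrite reductase, was the one that was lower at 1 day, with −0.13.

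The plastid-encoded genes of the cytochrome b6f complex and the ATP synthase went the other way at both ages. The 12 genes are listed as 11 loci, because *atpB* and *atpE* share one. At 7 days all 11 were higher in *sig2-2* than in WT, and the 9 loci listed above 0 in every condition were between 3.0-fold and 26.6-fold higher. The smallest of these ratios was that of *atpB*/*atpE*, at 99.7 FPKM in *sig2-2* and 33.3 FPKM in WT. The largest was that of *atpA*, the alpha subunit, at 132 FPKM in *sig2-2* and 4.97 FPKM in WT, and *petA*, cytochrome f, was at 45.4 FPKM in *sig2-2* and 3.47 FPKM in WT. At 1 day all 11 were lower in *sig2-2*, with *atpA* at 8.29 FPKM in *sig2-2* and 13.4 FPKM in WT and *petA* at 5.0 FPKM in *sig2-2* and 6.72 FPKM in WT. The median log2 ratio of the 9 loci was 3.03 at 7 days and −0.63 at 1 day. The share of all 130 plastid loci that went these ways was not computed. The counts of 11 are therefore not shown to be particular to these complexes. *petG* was listed at 0 in WT at 7 days and *petL* at 0 in *sig2-2* at 1 day, and no fold is given for them. These 2 loci and *petN* are 114, 96 and 90 nt long, and FPKM of loci that short is uncertain. Plastid transcripts mostly lack long poly(A) tails and mRNA libraries were sequenced here. The part of that step in the plastid values was not tested.

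**Figure D5:**
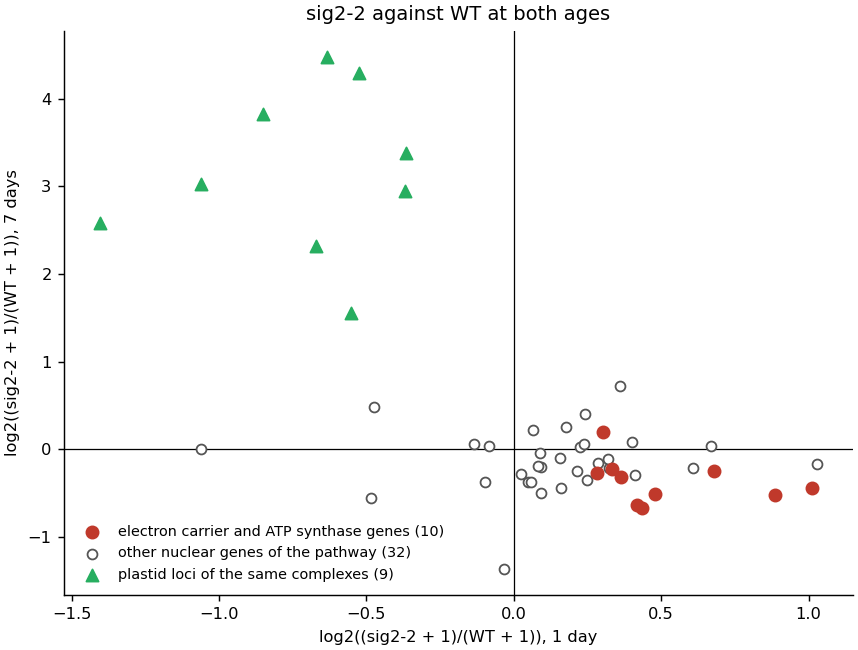
Log2 ratio of *sig2-2* over WT with 1 FPKM added, at 1 day (horizontal axis) and 7 days (vertical axis), for the 10 nuclear genes (filled circles), the 32 other nuclear genes of the pathway (open circles) and the 9 plastid loci above 0 in every condition (triangles). The plastid loci lie at upper left, lower in *sig2-2* at 1 day and higher at 7 days, and 9 of the 10 nuclear genes lie at lower right.

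Within the set, *PETC* lay nearest to the mean pattern of the 10 genes over the 4 conditions (Euclidean distance 0.19 between log2 values centred per gene), and *FD1* lay farthest from it at 3.44. Of 16862 other nuclear loci with at least 1 FPKM in all 4 conditions, the 5 nearest to the mean pattern were *PSBY*, *SHM1*, *NdhS*, *GOX1* and *SBPASE*, at distances between 0.05 and 0.16. *PSBY*, a photosystem II subunit, was at 993 FPKM in *sig2-2* and 1334 FPKM in WT at 7 days, while at 1 day it had 146 FPKM in *sig2-2* against 99.5 FPKM in WT. *SHM1*, a serine hydroxymethyltransferase of photorespiration, was at 932 FPKM in *sig2-2* and 1117 FPKM in WT at 7 days, while at 1 day it had 132 FPKM in *sig2-2* against 90.6 FPKM in WT. *GOX1* encodes a glycolate oxidase of the same pathway, *NdhS* a subunit of the chloroplast NAD(P)H dehydrogenase-like complex and *SBPASE* a Calvin cycle phosphatase. The likeness is over 4 values only.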

How the data were processed

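Libraries were made with a TruSeq mRNA kit and sequenced as 55 nt reads. The authors used Cufflinks and Cuffdiff, per the submitters' processing notes, and deposited FPKM with the 3 replicates of a condition combined. Versions, aligner, annotation and genome build are not given in the sources used here. Of 32186 loci on the chromosome that TAIR10.1 gives them, 50.1% shared a start or end with it to the base, so structure and sequence were taken from RefSeq's TAIR10.1 by identifier. The deposited log2 ratios, p-values and q-values of the authors' own comparisons were not used. In the combined table, 4 rows held no locus (a blank row and notes) and were left out.

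Log2 ratios were computed with a pseudocount of 1 FPKM, against all loci listed at 1 FPKM or more in either condition compared. The plan had limma for single replicates, but no column holds one, so no test was made. The text names the 10 genes, *SIG2*, pathway genes past 2-fold, the extremes of each list and the 5 loci nearest in pattern. *FD3*, *petA* and the overlapping genes were named after their values were seen. The 10 genes and the lists were chosen with earlier results of these data known. TAIR10.1 names were used where the table's differ (*FDC1* and *FDC2* are exchanged in it). Python 3.11.15, pandas 2.3.3, numpy 2.4.6, biopython 1.88 and matplotlib 3.10.9 were used. The fold calls were run on simulated data, with 200 of 33078 loci changed 4-fold at 1 day. All 200 were called in the right direction and 0 of the others were called. The others had only small random changes, far under 2-fold, and the changed loci were not low ones. The outcome follows from those settings, so it checks the calculation and not the accuracy of calls on real values.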

Additional observations from a re-analysis of the deposited data

Results flagged for a closer look

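The values singled out here are ratios whose direction differed between the 2 ages or the 2 genotypes. Each rests on 1 combined value per condition, so the difference was not tested. The log2 ratio of *sig2-2* over WT was below 0 at 7 days and above 0 at 1 day for 9 of the 10 genes. Of all loci, 49.9% were lower in *sig2-2* at 7 days and 47.7% were higher at 1 day. The share of loci with both was not computed, so the count of 9 has no background to be set against. The value at 7 days minus that at 1 day was −1.45 for *FNR1*, −1.41 for *PETE2*, −1.11 for *FD1*, −1.06 for *ATPD*, −0.99 for *PETE1*, −0.93 for *PETC*, −0.69 for *FNR2*, −0.56 for *ATPG* and −0.55 for *ATPC1*. *FD1* is also the gene whose age ratio differed in direction between genotypes, below 0 in *sig2-2* and above 0 in WT, with a difference of −1.11. The plastid loci of the same complexes had the opposite signs at both ages, and their median ratio at 7 days minus that at 1 day was 3.67.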

How the results depend on the processing

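Centring on the median and rescaling without AT2G01021 changed the sign of no *sig2-2* over WT log2 ratio and no age ratio of the 10 genes. Pseudocounts of 0.1 and 10 were also run, the first on the age ratios too. A pseudocount cannot change the sign of a ratio and bears only on its size. The tables of single conditions hold the same values (largest difference 0), so that setting could change nothing and checks only the reading of the values. Filters on low values (none, or a stricter one of 10 FPKM) and a 1.5-fold threshold bear only on which loci are taken in and on counts. The stricter filter left *PETE1* out at 1 day, and the median of the other 9 genes was 0.42. With a pseudocount of 10, the number of genes 2-fold or more higher in *sig2-2* at 1 day was 0 (*FNR1* at 0.83), and with a 1.5-fold threshold it was 3. With the 1.5-fold threshold, 2 genes were lower at 7 days. Neither centring nor rescaling shifted the median of all loci by over 0.1. The share of all loci called moved with the settings. At 7 days it was 1.65% higher and 1.08% lower with a pseudocount of 10, 2.71% and 2.35% with no filter, and 5.86% lower with a pseudocount of 0.1. At 1 day it was 0.663% higher and 0.398% lower with a pseudocount of 10, 1.66% and 0.653% with no filter, and 4.77% and 1.99% with a pseudocount of 0.1. The 1.5-fold threshold gave 10.9% higher and 9.99% lower at 7 days, and 6.35% higher and 3.43% lower at 1 day. No paired analysis was possible because the replicates are combined in the deposited values, and for the same reason leaving out a replicate was not run. Depth is unknown, so the counting error of low values such as those of *PETE1* at 1 day cannot be given.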
